A study of Mus musculus with 15 samples.

Results

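Matrix glycoproteins, laminins and proteoglycans of mouse perigonadal fat, the fat pad beside the gonads, were followed through high-fat feeding and a return to chow. A list of 47 genes was used, made up of 9 laminin chains, 4 other basement membrane genes, 9 genes for fibronectin and matricellular proteins, 17 elastic fibre and microfibril genes and 8 proteoglycan genes. All 47 symbols matched an Entrez ID of the count table, which lists 35794 IDs, and all 47 were among the 15208 genes that passed a filter on low counts. The rule uses gene names alone, though the list itself was drawn up with earlier results of these data known.

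These genes encode the matrix outside the fibrillar collagens. Laminins are trimers of an alpha, a beta and a gamma chain that form the sheet of the basement membrane, which nidogens and perlecan tie to type IV collagen, and every fat cell is wrapped in such a membrane. Fibrillins form microfibrils, on which elastin is laid down with the help of fibulins, and to which latent TGF-beta binding proteins anchor the inactive growth factor. Small leucine-rich proteoglycans bind collagen fibrils and set their spacing, while matricellular proteins such as SPARC and periostin act on cells and on collagen assembly more than as scaffold.

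All mice were C57BL/6, and their age was 14 weeks by the labels. Weight loss mice (4 libraries) ate a 60% high-fat diet for 5 weeks, beginning at 8 weeks of age, and were returned to chow for 1 week. Obese mice (5 libraries) were fed the high-fat diet without that switch, and lean mice (5 libraries) were fed chow. Poly(A) RNA was sequenced. The design text calls the samples independent, the labels tie no library to a named animal, and p-values therefore measure the spread between these samples.

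The 14 libraries used held 13924770 to 33807887 counts each, and weight loss replicate 5 was left out because its total was below a minimum of 1000000. Levels are CPM, read counts relative to a library size scaled by TMM, and fold changes are log2 values ± standard error (SE) from edgeR's quasi-likelihood test. A gene is called higher or lower when its p, adjusted by Benjamini-Hochberg over all 15208 genes, is at most 0.05. The labelled tissue held its defining markers, with Fabp4, the fatty acid carrier of fat cells, at a mean of 7468 CPM over the libraries. In this whole tissue, fewer cells of a type and less RNA per cell cannot be told apart. Of 29 markers of the epididymis, the duct that lies against this fat pad, 23 passed the filter and 1 was at 0 in all libraries. Their summed level was 11.7 to 176 CPM in weight loss fat, 51.6 to 9198 CPM in obese fat and 27.7 to 4092 CPM in lean fat. The libraries richest in them were obese replicates 2, 5 and 4 and lean replicate 1. Counts and key values without those 4 libraries are given below.

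In obese against lean fat, 18 of the 47 matrix genes rose and none fell. They were Lamb3 among the laminin chains, Nid1 and Hspg2 among the other basement membrane genes, Fn1, Sparc, Postn and Tnxb in the matricellular group, Fbn1, Emilin2, Mfap5, Mfap4, Fbln2, Fbln5 and Eln among elastic fibre genes, and Aspn, Vcan, Prelp and Bgn among proteoglycans. Of all genes tested, 5.86% were called higher and 3.85% lower in that comparison. The log2 difference was above 0 for 40 of the 47 genes, with a median of 0.51. Over all genes tested 47.8% were above 0, with a median of -0.02. For 15 of the 47 every obese library lay above every lean library, a pattern that 6.04% of all genes showed. The summed level of the 47 genes was 12040 to 16240 CPM in obese libraries and 7567 to 9656 CPM in lean libraries, with no overlap.

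After weight loss, Lamb3 and Sparc fell against obese fat and no gene of the list rose. Of all genes tested, 0.736% were called higher and 0.881% lower. The median log2 difference of the 47 genes was -0.16, against 0.02 over all genes, and 15 of the 47 differences were above 0, against 52.9% of all genes. Lamb3, Nid2, Sparc and Prelp were lower in every weight loss library than in any obese library, where 3.27% of all genes showed this pattern. The summed level was 8723 to 15020 CPM in weight loss libraries and 12040 to 16240 CPM in obese libraries, and these ranges overlap.

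In weight loss against lean fat, edgeR's test called none of the 47 genes at an adjusted p of 0.05. Of all genes tested 0.0329% were called higher in this comparison. At an unadjusted p under 0.05 it found 18 of the 47, against 11.4% of all genes. DESeq2 called 7 higher, against 1.33% of all genes, and limma-voom called none, against 0.00658%. The log2 difference was above 0 for 37 of the 47, with a median of 0.40. Over all genes 50.5% were above 0, with a median of 0.00. Mfap5, Emilin2 and Vcan were higher in every weight loss library than in any lean library, a pattern that 1.58% of all genes showed. Each group enters 2 of the 3 comparisons, so they share libraries and are only set side by side.

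**Figure D1:**
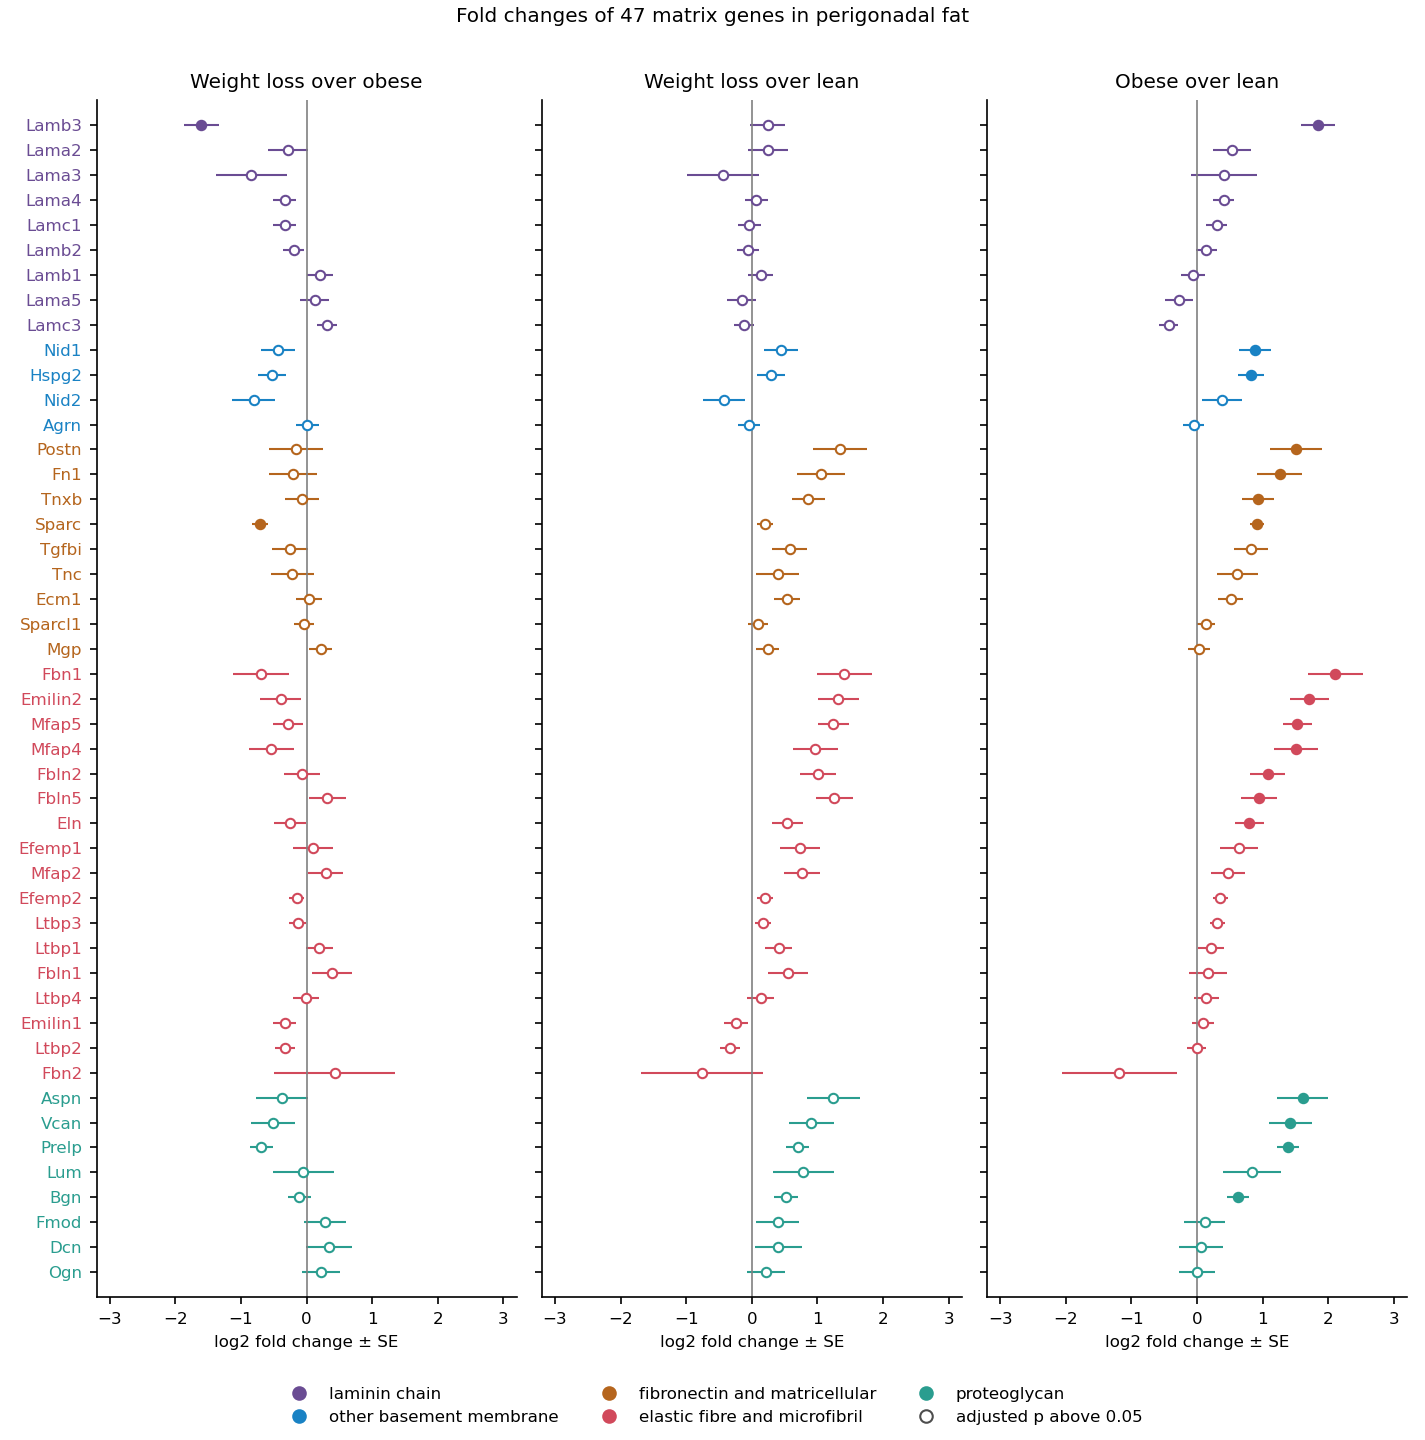
Log2 fold change (x axis, bars are ± SE) of each of the 47 matrix genes (y axis, coloured by role) for weight loss over obese, weight loss over lean and obese over lean, where filled points have an adjusted p of at most 0.05. The panel for obese over lean has 18 filled points, all right of 0, that for weight loss over obese has 2, Lamb3 and Sparc, both left of 0, and that for weight loss over lean has none.

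Promoter windows, 250 bases before to 50 after a transcription start in RefSeq on GRCm38.p6, were found for 33 of the 47 genes. Those below are shown because Sparc, Lamb3 and Prelp were among the 4 genes called in every one of 25 alternative fits for obese against lean, and because Fbn1 had the highest log2 difference. Mfap5 is the other gene of those 4. Capitals mark CAGAC, the core of the element bound by SMAD proteins that act downstream of TGF-beta, and GGGCGG, the GC box, each on either strand. The windows are chr11:55420031-55420330 on the minus strand for Sparc, chr1:193301744-193302043 on the plus strand for Lamb3 (the first listed of 2 starts), chr1:133921352-133921651 on the minus strand for Prelp and chr2:125506389-125506688 on the minus strand for Fbn1, each written 5′ to 3′ on the gene's strand. Those of Lamb3 and Prelp lie inside the gene spans given below, downstream of the 5′ end of the gene.
Sparc: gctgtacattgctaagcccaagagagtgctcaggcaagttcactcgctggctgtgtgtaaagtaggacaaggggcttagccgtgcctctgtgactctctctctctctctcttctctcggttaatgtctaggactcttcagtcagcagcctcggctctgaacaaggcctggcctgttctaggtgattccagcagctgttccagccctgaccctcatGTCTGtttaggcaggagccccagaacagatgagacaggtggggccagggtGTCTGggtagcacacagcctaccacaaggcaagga
Lamb3: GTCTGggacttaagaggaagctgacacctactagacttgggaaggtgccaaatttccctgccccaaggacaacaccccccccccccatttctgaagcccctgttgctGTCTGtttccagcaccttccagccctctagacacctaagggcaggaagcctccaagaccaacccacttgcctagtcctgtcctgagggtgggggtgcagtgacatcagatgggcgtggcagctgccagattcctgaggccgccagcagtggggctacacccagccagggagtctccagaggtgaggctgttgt
Prelp: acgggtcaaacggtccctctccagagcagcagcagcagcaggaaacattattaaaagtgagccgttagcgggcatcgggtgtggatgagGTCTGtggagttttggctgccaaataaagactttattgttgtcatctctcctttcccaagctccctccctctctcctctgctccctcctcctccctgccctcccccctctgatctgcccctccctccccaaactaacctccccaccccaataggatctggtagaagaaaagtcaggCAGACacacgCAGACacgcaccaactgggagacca
Fbn1: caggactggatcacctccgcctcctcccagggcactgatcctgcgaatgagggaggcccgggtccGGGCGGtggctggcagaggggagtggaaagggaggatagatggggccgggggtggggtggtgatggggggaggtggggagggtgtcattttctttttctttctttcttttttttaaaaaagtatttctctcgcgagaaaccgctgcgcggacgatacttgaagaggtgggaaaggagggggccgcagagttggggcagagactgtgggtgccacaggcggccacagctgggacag
CAGAC was found at 2 places in the Sparc window, 2 in that of Lamb3, 3 in that of Prelp and 0 in that of Fbn1, which holds 1 GC box. Over the windows of the matrix genes, 29 of 46 (63.0%) hold CAGAC, against 49.6% of all 32851 windows, and 27 of 46 (58.7%) hold a GC box, against 35.7%. Among them are 18 windows of 14 genes called in obese against lean, of which 10 hold CAGAC and 8 a GC box. A TATAAA box is in 6 of the 46 windows and in 13.6% of all windows, and TGANTCA, the element of AP-1 factors, is in 4 and in 7.81%. Motifs were searched on both strands, and matches of CAGAC and GGGCGG can share an end letter, which occurs in none of the 4 windows shown. These matches describe the letters of the windows and say nothing of binding.

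Of the 9 laminin chains only Lamb3 was called, higher in obese against lean and lower in weight loss against obese. Over all genes 5.86% were called higher in the former and 0.881% lower in the latter. Lamb3 (Entrez ID 16780, chr1:193294353-193343878 on mm10) encodes the beta chain of the laminin of epithelial basement membranes. It stood at 5.65, 5.39, 4.88 and 5.24 CPM in weight loss libraries, at 10.2, 22.5, 17.0, 14.6 and 16.0 CPM in obese libraries and at 6.42, 3.76, 4.57, 5.16 and 2.41 CPM in lean libraries. Every obese library was above every other library, and the weight loss libraries lay within the range of the lean ones. The log2 difference was 1.84 ± 0.26 for obese against lean (edgeR adjusted p = 0.000588) and -1.60 ± 0.27 for weight loss against obese (edgeR adjusted p = 0.00727). For weight loss against lean it was 0.24 ± 0.27 with an adjusted p of 0.764.

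The level of Lamb3 was set beside that of the epididymal markers. Obese replicate 2, the library with the highest Lamb3 level, also had the highest epididymal sum, 9198 CPM, and lean replicate 1, the highest lean library, had 4092 CPM. Obese replicate 1, whose epididymal sum was 51.6 CPM, had 10.2 CPM of Lamb3, above all weight loss and lean libraries. Without the 4 libraries richest in these markers, which leaves 2 obese libraries, the log2 difference of obese against lean was 1.77 ± 0.33 (edgeR adjusted p = 0.0350). For weight loss against obese it was -1.37 ± 0.33 without those 4 libraries and -1.07 ± 0.28 with the marker level as a covariate, and neither passed (edgeR adjusted p = 0.234 and 0.174). The part of epididymal tissue in the Lamb3 level was not tested further.

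The other laminin chains are those of the vascular, muscle and general basement membranes. Lama4, the alpha chain most typical of fat and vessels, averaged 246 ± 45.3 CPM in weight loss fat, 310 ± 48.7 CPM in obese fat and 234 ± 49.8 CPM in lean fat (SD, n = 4, 5 and 5). Its log2 difference of 0.40 ± 0.16 for obese against lean did not pass (edgeR adjusted p = 0.133). With the replicate number as a block in the model Lama4 was called higher (edgeR adjusted p = 0.0267). Lamc1, the common gamma chain, had a difference of 0.30 ± 0.16 (edgeR adjusted p = 0.285) and Lama2, the alpha chain of muscle laminin, one of 0.53 ± 0.28 (edgeR adjusted p = 0.272). Lamb1 and Lamb2, the common beta chains, had adjusted p values of 0.861 and 0.638, and Lama5, an alpha chain of epithelia and vessels, 0.459.

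Lamc3, a gamma chain of restricted expression, was the laminin closest to a lower call in obese fat. It had 23.8, 17.9, 23.3 and 23.0 CPM in weight loss libraries, 21.8, 18.8, 15.9, 14.9 and 17.2 CPM in obese libraries and 30.2, 22.2, 24.6, 21.7 and 20.6 CPM in lean libraries. Only obese replicate 1 reached into the lean range. The log2 difference was -0.43 ± 0.14 with an edgeR adjusted p of 0.0696, and DESeq2 called Lamc3 lower with an adjusted p of 0.0280. Lama3, the alpha chain that pairs with the Lamb3 product, rests on 10 to 157 counts per library and ranged over 0.534 to 2.37 CPM in weight loss fat, 0.597 to 4.85 CPM in obese fat and 1.14 to 3.33 CPM in lean fat. Its adjusted p for obese against lean was 0.683.

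Of the 4 other basement membrane genes, Nid1 and Hspg2 rose in obese against lean fat, where 5.86% of all genes did. Hspg2 (perlecan, the heparan sulfate proteoglycan of basement membranes, Entrez ID 15530, chr4:137468751-137570630) had 1321, 685, 664 and 599 CPM in weight loss libraries, 1288, 1195, 1305, 939 and 1165 CPM in obese libraries and 675, 739, 493, 689 and 743 CPM in lean libraries. Weight loss replicate 1 was at the obese level while the other 3 weight loss libraries were at the lean level. The difference of obese against lean was 0.82 ± 0.20 on the log2 scale (edgeR adjusted p = 0.0189) and that of weight loss against obese was -0.53 ± 0.21 (edgeR adjusted p = 0.260). Without weight loss replicate 1, Hspg2 was called lower in weight loss against obese fat, at -0.86 with an edgeR adjusted p of 0.0136.

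Nid1 (nidogen, a linker between laminin and type IV collagen, Entrez ID 18073, chr13:13437602-13512275) had 372, 323, 373 and 172 CPM in weight loss libraries, 528, 467, 340, 442 and 328 CPM in obese libraries and 251, 294, 286, 179 and 133 CPM in lean libraries. Obese and lean libraries did not overlap, and weight loss libraries spread over both ranges. Its log2 difference for obese against lean was 0.88 ± 0.25 (edgeR adjusted p = 0.0354). Nid2, the second nidogen, had 31.1, 28.8, 23.7 and 15.5 CPM in weight loss libraries, all below the 32.9 to 62.9 CPM of obese libraries. Lean libraries held 16.7 to 57.5 CPM of Nid2 and overlapped both. The Nid2 difference of weight loss against obese was -0.80 ± 0.33 and did not pass (edgeR adjusted p = 0.272). Agrn (agrin, a second heparan sulfate proteoglycan) averaged 71.4 ± 8.03 CPM in weight loss fat, 70.8 ± 10.2 CPM in obese fat and 73.4 ± 19.8 CPM in lean fat, with an adjusted p of 0.879 for obese against lean.

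**Figure D2:**
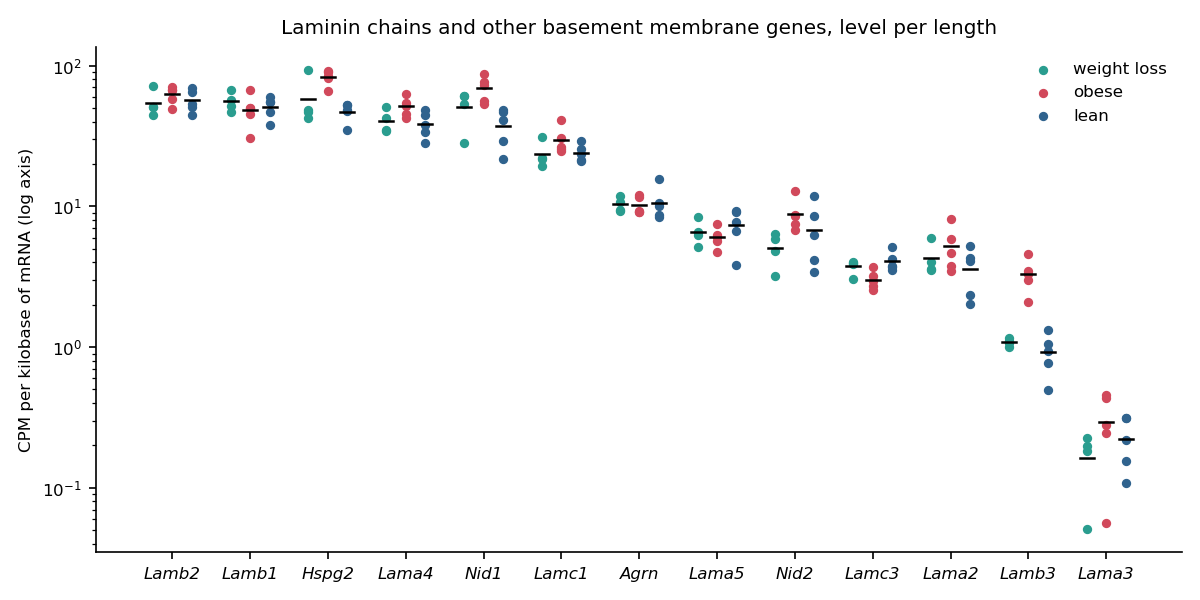
CPM per kilobase of mRNA (y axis, log axis) of the 13 laminin and other basement membrane genes (x axis), 1 point per library, with the mean of each group as a bar. Lamb3 is the only chain whose obese points all stand above both other groups, and it lies below the chains Lamb2, Lamb1, Lama4 and Lamc1 in every group.

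Levels of different genes were compared per kilobase of the longest principal mRNA. In obese fat Lamb2 stood at 62.5 ± 8.67, Lama4 at 51.3 ± 8.05 and Lamb1 at 48.6 ± 13.2 CPM per kilobase. Lamb2 was above Lama4 in all 5 obese libraries, and Lama4 above Lamb1 in 3 of the 5. Lamc1 followed at 29.7 ± 6.90, Lama5 at 6.05 ± 1.00, Lama2 at 5.20 ± 1.91, Lamb3 at 3.30 ± 0.910 and Lamc3 at 3.02 ± 0.461. Lama3 was the lowest chain at 0.294 ± 0.163 CPM per kilobase. Lamb3 was a minor chain even in obese fat, and its partner Lama3 lay lower still.

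**Figure D3:**
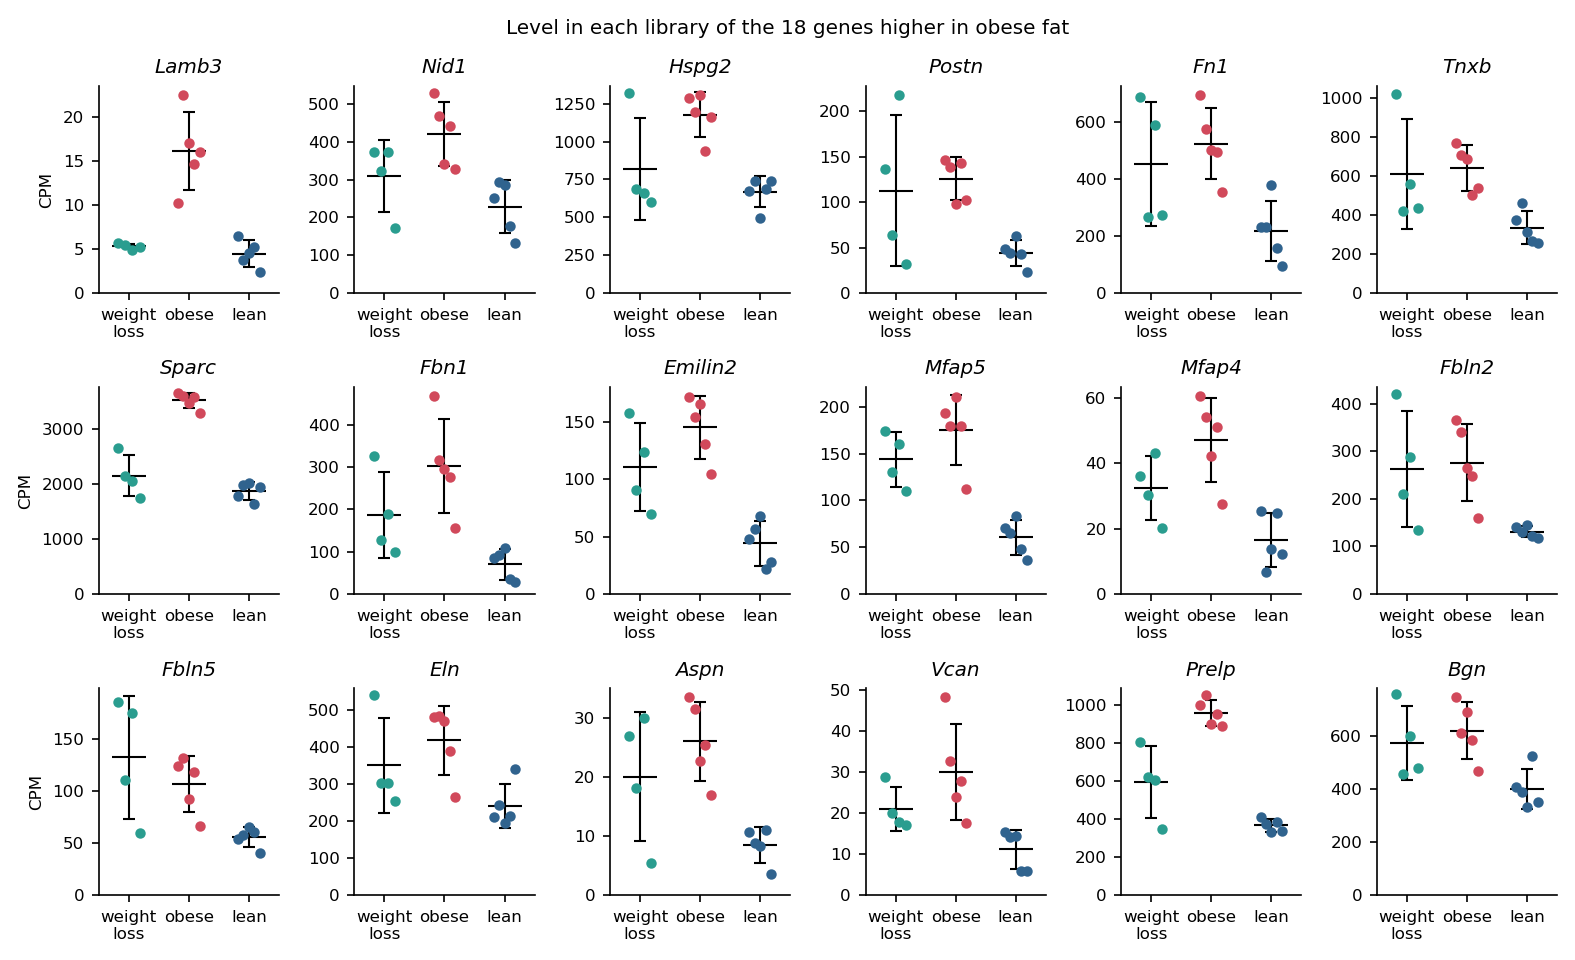
Level in CPM (y axis) of the 18 genes called higher in obese against lean fat, 1 panel per gene and 1 point per library, with the mean and SD of each group as bars. For 15 of the 18, all but Fn1, Eln and Bgn, the obese points lie wholly above the lean points, and the weight loss points of Lamb3, Sparc and Prelp lie below all obese points.

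Among the 9 genes for fibronectin and matricellular proteins, 4 rose in obese against lean fat and the log2 difference was above 0 for all 9. The shares over all genes were 5.86% and 47.8%. Sparc (a calcium-binding protein that chaperones collagen, Entrez ID 20692, chr11:55394159-55420080) had 2648, 2151, 2051 and 1748 CPM in weight loss libraries, 3649, 3593, 3471, 3575 and 3291 CPM in obese libraries and 1780, 1983, 2012, 1628 and 1940 CPM in lean libraries. The obese libraries stood apart from both other groups, and weight loss replicate 1 was the nearest to them. Sparc was 1.88-fold higher in obese than in lean fat, a log2 difference of 0.91 ± 0.11 (edgeR adjusted p = 0.000212). In weight loss against obese fat it fell by 0.71 ± 0.12 on the log2 scale (edgeR adjusted p = 0.00604), and weight loss against lean gave 0.20 ± 0.12 (edgeR adjusted p = 0.532). Sparc fell in 24 of 25 alternative fits of weight loss against obese. The exception was the fit without the 4 libraries richest in epididymal markers, which leaves 2 obese libraries. There the log2 difference was -0.73 ± 0.18 with an adjusted p of 0.247, and with the marker level as a covariate it was -0.87 ± 0.15 and called (edgeR adjusted p = 0.0239). Per kilobase Sparc was the most abundant gene of the list in each group, at 934 ± 163 CPM in weight loss fat, 1530 ± 61.3 CPM in obese fat and 812 ± 70.3 CPM in lean fat.

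Sparcl1, the closest relative of Sparc, was not called in any comparison. It averaged 275 ± 49.4 CPM in weight loss fat, 283 ± 34.1 CPM in obese fat and 257 ± 45.2 CPM in lean fat, with an adjusted p of 0.624 for obese against lean. Mgp, an inhibitor of calcification, was the second most abundant gene per kilobase in each group and had an adjusted p of 0.943.

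Fn1 (fibronectin, Entrez ID 14268, chr1:71585473-71653280), Postn and Tnxb rose in obese fat with wide spread in weight loss fat. Fn1 had 691, 266, 591 and 273 CPM in weight loss libraries, 698, 575, 504, 497 and 354 CPM in obese libraries and 234, 231, 379, 159 and 94.8 CPM in lean libraries. Obese replicate 5 fell just below lean replicate 3, so these groups overlapped by 1 library. The log2 difference of obese against lean was 1.26 ± 0.35 (edgeR adjusted p = 0.0335) and that of weight loss against lean was 1.05 ± 0.36 (edgeR adjusted p = 0.293).

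Postn (periostin, which promotes collagen cross-linking, Entrez ID 50706, chr3:54359267-54391041) had 136, 63.9, 218 and 31.8 CPM in weight loss libraries, 147, 139, 97.9, 143 and 102 CPM in obese libraries and 48.2, 44.3, 62.7, 43.0 and 23.2 CPM in lean libraries. Weight loss libraries ran from within the lean range to above every obese library. Postn was 2.84-fold higher in obese than in lean fat (edgeR adjusted p = 0.0279). Tnxb (tenascin-X, which bridges collagen fibrils, Entrez ID 81877, chr17:34660453-34719815) had 1024, 421, 558 and 435 CPM in weight loss libraries, 772, 707, 689, 503 and 537 CPM in obese libraries and 376, 464, 316, 269 and 254 CPM in lean libraries. Weight loss replicate 1 was the highest library of all for Tnxb. Its log2 difference for obese against lean was 0.93 ± 0.24 (edgeR adjusted p = 0.0263).

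Tgfbi, an integrin-binding protein induced by TGF-beta, came close to a call. It averaged 99.6 ± 23.6 CPM in weight loss fat, 118 ± 23.7 CPM in obese fat and 66.8 ± 31.8 CPM in lean fat, and its log2 difference of 0.82 ± 0.26 for obese against lean had an edgeR adjusted p of 0.0579. Lean replicate 3, at 121 CPM of Tgfbi, lay above 4 of the 5 obese libraries, and without it the difference was 1.16 with an edgeR adjusted p of 0.00337. DESeq2 and limma-voom also called Tgfbi higher (adjusted p = 0.0153 and 0.0363). So did the replicate block and the epididymal covariate (edgeR adjusted p = 0.00893 and 0.0386), while the other scalings and filters did not. Ecm1, a secreted scaffold protein, had a difference of 0.51 ± 0.19 (edgeR adjusted p = 0.101). Tnc (tenascin-C, a protein of remodelled tissue) averaged 22.9 ± 9.79 CPM in weight loss fat, 26.6 ± 12.8 CPM in obese fat and 17.4 ± 3.39 CPM in lean fat, with an adjusted p of 0.236.

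Among the 17 elastic fibre and microfibril genes, 7 rose in obese against lean fat, against 5.86% of all genes. Fbn1 (fibrillin, the core of the microfibril, Entrez ID 14118, chr2:125300594-125506485) had the highest log2 difference of all 47 genes. It stood at 327, 129, 190 and 98.98 CPM in weight loss libraries, at 468, 316, 295, 276 and 156 CPM in obese libraries and at 84.7, 91.2, 110, 34.9 and 29.3 CPM in lean libraries. All obese libraries were above all lean libraries, and weight loss replicate 4 was the only weight loss library inside the lean range. Fbn1 was 4.32-fold higher in obese than in lean fat, a log2 difference of 2.11 ± 0.42 (edgeR adjusted p = 0.00601). Weight loss against obese gave -0.70 ± 0.43 (edgeR adjusted p = 0.509) and weight loss against lean 1.41 ± 0.42 (edgeR adjusted p = 0.233).

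Of the genes for proteins attached to the microfibril, Mfap5, Mfap4 and Emilin2 rose. Mfap5 (microfibril-associated protein, Entrez ID 50530, chr6:122513584-122529290) had 174, 130, 160 and 110 CPM in weight loss libraries, 193, 180, 211, 179 and 112 CPM in obese libraries and 70.9, 65.0, 82.9, 48.4 and 35.9 CPM in lean libraries. Weight loss and obese libraries overlapped, and both stood wholly above the lean ones. The log2 difference was 1.53 ± 0.22 for obese against lean (edgeR adjusted p = 0.000875), -0.28 ± 0.23 for weight loss against obese (edgeR adjusted p = 0.656) and 1.24 ± 0.23 for weight loss against lean. The last of these had the smallest adjusted p of the list in its comparison, 0.0761. It passed under 4 of the 25 alternatives, among them DESeq2 with an adjusted p of 0.000106. Without lean replicate 3 the edgeR adjusted p was 0.0475.

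Emilin2, an elastin-interface glycoprotein (Entrez ID 246707, chr17:71252172-71311556), had 158, 90.8, 123 and 69.9 CPM in weight loss libraries, 172, 154, 165, 130 and 105 CPM in obese libraries and 48.1, 56.6, 67.6, 21.5 and 27.5 CPM in lean libraries. The lowest weight loss library of Emilin2 stood only just above the highest lean one. Its log2 difference was 1.71 ± 0.30 for obese against lean (edgeR adjusted p = 0.00302) and 1.32 ± 0.31 for weight loss against lean (edgeR adjusted p = 0.133). Emilin1, the other elastin-interface gene of the list, averaged 36.9 ± 8.00 CPM in weight loss fat, 46.5 ± 7.84 CPM in obese fat and 43.7 ± 8.62 CPM in lean fat, with an adjusted p of 0.792 for obese against lean. Mfap4, an integrin-binding microfibril protein, averaged 32.4 ± 9.74 CPM in weight loss fat, 47.05 ± 12.7 CPM in obese fat and 16.5 ± 8.20 CPM in lean fat, a log2 difference of 1.51 ± 0.33 for obese against lean (edgeR adjusted p = 0.0116).

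Fbln2 and Fbln5, fibulins that bind elastin and its receptors, rose with Eln, which encodes elastin itself. Fbln2 averaged 263 ± 122 CPM in weight loss fat, 276 ± 81.0 CPM in obese fat and 131 ± 11.9 CPM in lean fat, a log2 difference of 1.08 ± 0.26 for obese against lean (edgeR adjusted p = 0.0198). Fbln5 had 185, 110, 174 and 59.2 CPM in weight loss libraries, 124, 132, 92.4, 118 and 66.4 CPM in obese libraries and 53.7, 57.6, 65.4, 60.1 and 40.3 CPM in lean libraries. Weight loss replicates 1 and 3 stood above every obese library, and weight loss replicate 4 was at the lean level. Its differences were 0.94 ± 0.27 for obese against lean (edgeR adjusted p = 0.0391), 0.31 ± 0.28 for weight loss against obese (edgeR adjusted p = 0.696) and 1.25 ± 0.28 for weight loss against lean (edgeR adjusted p = 0.127). Eln averaged 350 ± 129 CPM in weight loss fat, 417 ± 93.8 CPM in obese fat and 240 ± 58.1 CPM in lean fat, a log2 difference of 0.80 ± 0.23 for obese against lean (edgeR adjusted p = 0.0376).

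The 4 genes for latent TGF-beta binding proteins did not pass in any comparison of the edgeR fit with groups alone. For obese against lean the adjusted p values were 0.560 for Ltbp1, 0.981 for Ltbp2, 0.114 for Ltbp3 and 0.704 for Ltbp4. Ltbp3 averaged 429 ± 46.5 CPM in weight loss fat, 472 ± 53.1 CPM in obese fat and 381 ± 52.1 CPM in lean fat, a log2 difference of 0.31 ± 0.12 for obese against lean. With the replicate block Ltbp3 passed there (edgeR adjusted p = 0.0492). Efemp2, needed for elastin cross-linking, had a difference of 0.36 ± 0.11 (edgeR adjusted p = 0.0606) and was called by DESeq2 (adjusted p = 0.0304). It also passed when library totals alone set the scale (edgeR adjusted p = 0.0454). Efemp1, a related fibulin, had a difference of 0.63 ± 0.29 (edgeR adjusted p = 0.193). It passed with the replicate block and without lean replicate 3 (edgeR adjusted p = 0.0206 and 0.0391). Mfap2, a microfibril glycoprotein, had differences of 0.47 ± 0.26 for obese against lean (edgeR adjusted p = 0.277) and 0.77 ± 0.27 for weight loss against lean (edgeR adjusted p = 0.304). Fbln1, a fibulin of basement membranes and elastic fibres, had 0.17 ± 0.29 for obese against lean (edgeR adjusted p = 0.779) and 0.55 ± 0.31 for weight loss against lean (edgeR adjusted p = 0.522).

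Fbn2, the fibrillin of embryonic tissue, differed from Fbn1 in level and in pattern. It rests on 2 to 128 counts per library, with 0.790, 0.712, 1.27 and 4.06 CPM in weight loss libraries, 0.833, 0.696, 2.44, 0.367 and 2.01 CPM in obese libraries and 4.42, 0.142, 0.542, 8.58 and 0.780 CPM in lean libraries. Lean replicates 4 and 1, weight loss replicate 4 and obese replicates 3 and 5 held the most, and the groups overlapped throughout. The log2 difference of obese against lean was -1.19 ± 0.88 (edgeR adjusted p = 0.445). The same 5 libraries had the highest summed level of 10 mural and smooth muscle markers, 4612 and 2659 CPM in those lean libraries, 1899 CPM in the weight loss library and 2141 and 1831 CPM in the obese libraries, against at most 1220 CPM in the other 9. Acta2, a defining marker of that list, is listed at 0 in all 14 libraries, and the part of smooth muscle in the Fbn2 level was not tested.

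**Figure D4:**
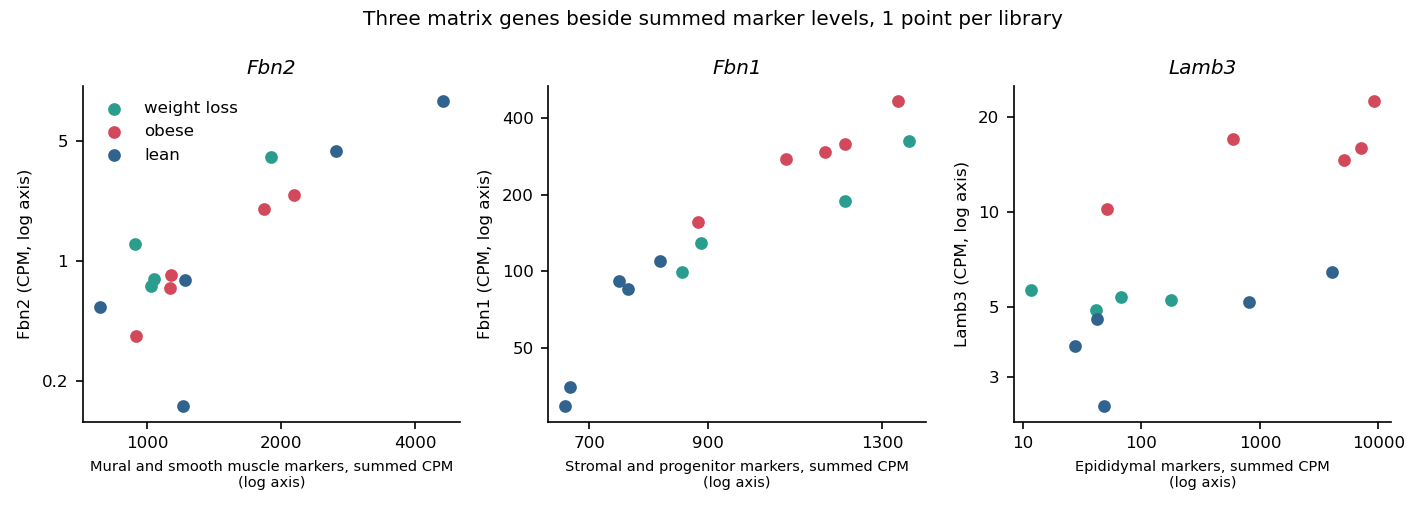
Level of Fbn2, Fbn1 and Lamb3 (y axes, CPM, log axes) against the summed CPM of mural and smooth muscle, stromal and progenitor, and epididymal markers (x axes, log axes), 1 point per library. The 5 libraries highest in Fbn2 are the 5 highest in smooth muscle markers, the lean libraries lie at the low end of both axes for Fbn1, and obese points of Lamb3 lie above the others from 51.6 to 9198 CPM of epididymal markers.

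Of the 8 proteoglycan genes, Prelp, Aspn, Vcan and Bgn rose in obese against lean fat, against 5.86% of all genes. Prelp (a heparin-binding leucine-rich proteoglycan that links basement membranes to collagen, Entrez ID 116847, chr1:133910304-133930102) had 806, 622, 604 and 345 CPM in weight loss libraries, 1000, 1054, 902, 955 and 890 CPM in obese libraries and 411, 372, 332, 384 and 336 CPM in lean libraries. Weight loss replicate 4 lay in the lean range and the other 3 weight loss libraries lay in the gap between lean and obese libraries. Prelp was 2.62-fold higher in obese than in lean fat, a log2 difference of 1.39 ± 0.17 (edgeR adjusted p = 0.00022). Weight loss against obese gave -0.69 ± 0.18 (edgeR adjusted p = 0.0689), and DESeq2 and limma-voom placed Prelp under the threshold there with adjusted p values of 0.0048 and 0.0439. Only 3 of the 25 alternatives called it there. With the epididymal marker level as a covariate it was -0.74 ± 0.24 and without the 4 libraries richest in these markers -0.68 ± 0.26. Neither passed (edgeR adjusted p = 0.342 and 0.709). Weight loss against lean gave 0.70 ± 0.18 (edgeR adjusted p = 0.146).

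Aspn (asporin, which binds collagen and TGF-beta, Entrez ID 66695, chr13:49544443-49567565) had 26.9, 18.1, 30.1 and 5.45 CPM in weight loss libraries, 33.7, 31.6, 22.7, 25.5 and 17.0 CPM in obese libraries and 10.8, 8.80, 8.41, 11.1 and 3.55 CPM in lean libraries. Obese and lean libraries did not overlap, and weight loss replicate 4 was within the lean range. The log2 difference of obese against lean was 1.61 ± 0.39 (edgeR adjusted p = 0.0183). Vcan (versican, a large hyaluronan-binding proteoglycan) averaged 21.0 ± 5.40 CPM in weight loss fat, 29.9 ± 11.7 CPM in obese fat and 11.1 ± 4.83 CPM in lean fat, with a difference of 1.42 ± 0.32 for obese against lean (edgeR adjusted p = 0.0138). Bgn (biglycan, a collagen-binding proteoglycan that also signals through innate immune receptors) averaged 575 ± 139 CPM in weight loss fat, 621 ± 107 CPM in obese fat and 402 ± 76.0 CPM in lean fat, with a difference of 0.63 ± 0.17 (edgeR adjusted p = 0.0311).

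Dcn (decorin), Fmod (fibromodulin), Ogn (mimecan) and Lum (lumican), which bind collagen fibrils, were not called. The log2 difference of obese against lean was 0.07 ± 0.33 for Dcn (edgeR adjusted p = 0.932), and 0.11 ± 0.31 for Fmod (edgeR adjusted p = 0.864). For Lum it was 0.84 ± 0.45 (edgeR adjusted p = 0.269), and for Ogn, which averaged 67.9 CPM in obese and in lean fat, the adjusted p was 0.999. The signs of the Dcn, Fmod and Ogn differences turned under some alternatives. Dcn, Fmod and Ogn had SDs of 229, 49.0 and 24.7 CPM among lean libraries, and a difference smaller than that spread is not detectable with these groups.

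Each of these uncalled genes except Dcn and Lum lies beside a called one. Prelp and Fmod are 107151 bases apart on chromosome 1, Aspn and Ogn 40449 bases apart on chromosome 13, and Lum and Dcn 47337 bases apart on chromosome 10. The log2 ratio of Prelp to Fmod CPM averaged 2.04 ± 0.54 in weight loss fat, 3.06 ± 0.29 in obese fat and 1.93 ± 0.82 in lean fat (SD over libraries). For Aspn to Ogn it averaged -2.16 ± 0.75 in weight loss fat, -1.38 ± 0.21 in obese fat and -3.01 ± 0.49 in lean fat, with every obese library above every lean library. For Lum to Dcn it was -3.86 ± 0.44 in weight loss fat, -3.27 ± 0.21 in obese fat and -4.05 ± 0.24 in lean fat, again with every obese library above every lean library. Obese and lean libraries overlapped in the ratio of Prelp to Fmod through lean replicate 5, at 3.26. The pairs were picked after their values were seen, so these ratios are a description and carry no test.

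**Figure D5:**
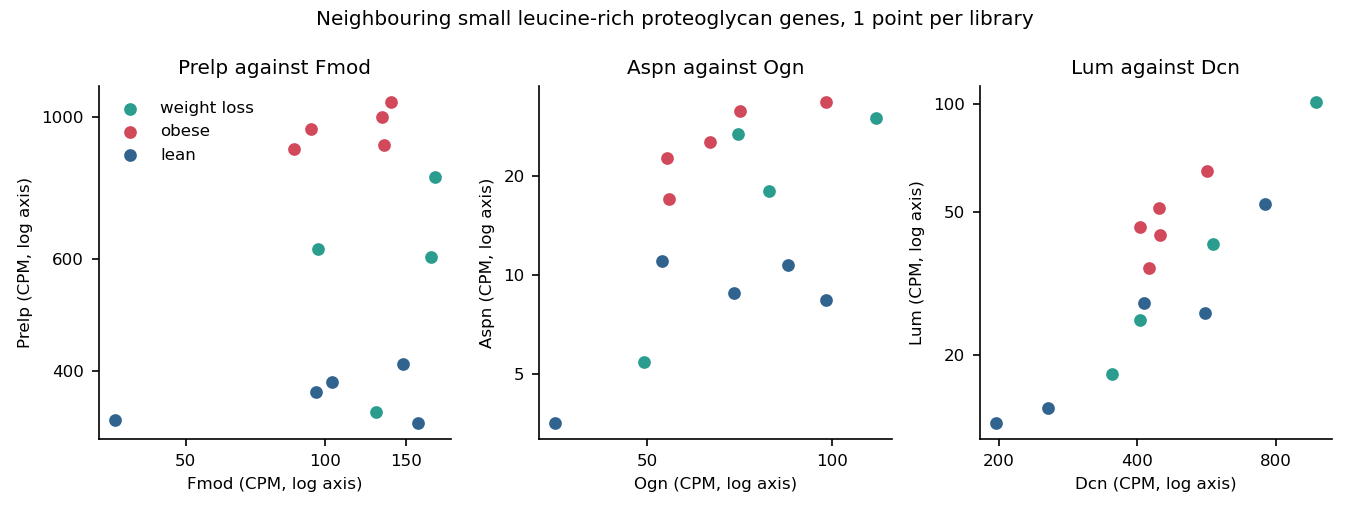
Level in CPM (log axes) of Prelp against Fmod, Aspn against Ogn and Lum against Dcn, 3 pairs of neighbouring genes for leucine-rich proteoglycans, 1 point per library. Prelp and Aspn of obese libraries lie above those of all lean libraries, and the Lum points of both groups overlap while the ratio of Lum to Dcn is higher in every obese library than in any lean one.

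Calls for obese against lean differed in how they withstood the loss of a library. Lamb3, Sparc, Fbn1, Mfap4, Mfap5, Emilin2, Prelp, Aspn and Vcan were called in all 14 fits that left out 1 library. In 4 of the 14 the library left out was a weight loss library, so both compared groups stayed whole. None of the 18 calls was lost in those fits, and they count toward the numbers below. Hspg2 was called in 13, all but that without obese replicate 3, and Fbln2 in 11, all but those without lean replicate 5 and obese replicates 1 and 2. Tnxb was called in 9, failing without lean replicates 4 and 5 and obese replicates 1, 2 and 3, and Nid1 in 8, failing without lean replicates 4 and 5 and obese replicates 1 to 4. Postn was called in 8, failing without lean replicates 2, 4 and 5 and obese replicates 1, 2 and 4, and Bgn in 7, failing without lean replicates 2, 3 and 5 and obese replicates 1 to 4. Fn1 and Fbln5 were each called in 6, failing without lean replicates 1, 2, 4 and 5 and obese replicates 1 to 4. Eln was called in 6, failing without lean replicates 1 to 4 and obese replicates 1 to 4. The number of genes called was lowest, 10, without obese replicate 2, where 3.60% of all genes were called higher. Without obese replicate 1 it was 10 higher and 1 lower, Lamc3, and 4.08% of all genes were called higher. Without lean replicate 5 and without obese replicate 3 it was 11 each, and 3.67% and 3.32% of all genes were called higher.

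Libraries also differed along the whole list. Weight loss replicate 1 was the highest of its group for 34 of the 47 genes and replicate 4 the lowest for 27. Obese replicate 1 was the highest for 27 and replicate 5 the lowest for 28, and lean replicate 5 was the lowest for 28. Without weight loss replicate 1, 4 genes were called lower in weight loss against obese, when Hspg2 and Prelp joined Lamb3 and Sparc, and 0.745% of all genes were. Weight loss against lean gave 7 higher calls without weight loss replicate 4 and 1, Mfap5, without lean replicate 3, in fits that called 0.746% and 0.105% of all genes higher. Without the 4 libraries richest in epididymal markers 4 genes were called in obese against lean, Lamb3, Sparc, Mfap5 and Prelp, and 0.603% of all genes were called higher. In that fit the log2 difference was above 0 for 42 of the 47 genes, with a median of 0.70, against 7372 of all 15420 genes and a median of -0.02. None of the 47 was called in weight loss against obese there, where 0.117% of all genes were called lower. With the marker level as a covariate the counts were 19 higher in obese against lean and 1 lower in weight loss against obese, against 4.24% and 0.230% of all genes.

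Markers of other cells were also called in obese against lean fat, where 5.86% of all genes tested were higher and 3.85% lower. The summed level of 12 stromal and progenitor cell markers, of which Ly6a was the most abundant, was 852 to 1374 CPM in weight loss fat, 881 to 1344 CPM in obese fat and 666 to 814 CPM in lean fat, and 6 of the 12 were called higher in obese against lean. The sum of 12 macrophage markers, of which C1qa was the most abundant, was 615 to 1402 CPM in weight loss fat, 1011 to 1585 CPM in obese fat and 453 to 1000 CPM in lean fat, and 8 of the 12 were called higher. Of 10 mesothelial markers (Krt19 the most abundant) 1 was higher, of 10 endothelial markers (Pecam1) 1 was lower, of 9 mural and smooth muscle markers that passed the filter (Mcam) none was called, and of 23 epididymal markers (Lcn8) 1 was higher. Of 8 adipocyte markers 1 was higher and 1 lower. The part of these cells in the level of the matrix genes was not tested.

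Further genes of the same families, outside the 47, were called in both directions. Of 52 other basement membrane, elastic fibre and proteoglycan genes 43 passed the filter, and in obese against lean fat 5 were higher and 2 lower, with a median log2 difference of 0.09. Over all genes tested 5.86% were higher and 3.85% lower. Ncan (neurocan, a hyaluronan-binding proteoglycan) averaged 4.91 ± 0.876 CPM in weight loss fat, 19.9 ± 6.24 CPM in obese fat and 3.06 ± 0.779 CPM in lean fat, a log2 difference of 2.71 ± 0.24 for obese against lean (edgeR adjusted p = 4.04e-05). Gpc1 (glypican, a heparan sulfate proteoglycan of the cell surface) averaged 30.8 ± 1.55 CPM in weight loss fat, 80.1 ± 19.6 CPM in obese fat and 27.4 ± 5.33 CPM in lean fat, a difference of 1.55 ± 0.16 (edgeR adjusted p = 7.9e-05). The other genes called higher were Ccn1 and Spp1, both integrin ligands, and Cilp, a cartilage matrix protein. Spp1 was only just under the threshold (edgeR adjusted p = 0.048) and low, at 4.19 ± 3.47 CPM in weight loss fat, 5.79 ± 1.40 CPM in obese fat and 1.38 ± 0.99 CPM in lean fat. Weight loss replicate 2, at 8.74 CPM of Spp1, stood above every obese library.

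Podn and Smoc1 ran the opposite way. Podn (podocan, a leucine-rich proteoglycan) had 246, 248, 213 and 243 CPM in weight loss libraries, 113, 101, 112, 91.9 and 124 CPM in obese libraries and 238, 320, 269, 221 and 345 CPM in lean libraries, so every obese library lay below all others. Its log2 difference was -1.36 ± 0.13 for obese against lean (edgeR adjusted p = 6.31e-05) and 1.13 ± 0.14 for weight loss against obese (edgeR adjusted p = 0.000919). Smoc1, a relative of Sparc, averaged 502 ± 48.1 CPM in weight loss fat, 355 ± 38.2 CPM in obese fat and 585 ± 71.6 CPM in lean fat. Its differences were -0.72 ± 0.11 for obese against lean (edgeR adjusted p = 0.00135) and 0.50 ± 0.12 for weight loss against obese (edgeR adjusted p = 0.0464). Podn and Smoc1 were the 2 genes of this list called higher in weight loss against obese, where 0.736% of all genes were. Their count became 1 in each fit without 1 obese or weight loss library, where 47 to 79 of all genes were called higher. It became 0 without the 4 libraries richest in epididymal markers, where 2 of 15420 genes were called higher. Ncan and Gpc1 fell in weight loss against obese fat, with log2 differences of -2.02 ± 0.25 and -1.38 ± 0.18 (edgeR adjusted p = 0.00116 each). None of the 43 genes was called in weight loss against lean by edgeR, where 8 had an unadjusted p under 0.05 (11.4% of all genes did) and DESeq2 called 1 higher (1.33% of all genes).

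Of 28 matrix receptors 27 passed the filter, with a median log2 difference of 0.35 in obese against lean fat. Against 5.86% higher and 3.85% lower over all genes tested, 5 receptors were higher there and none lower. They were the integrin subunits Itgb5, Itgb1 and Itga7, the last of which belongs to a laminin receptor, the collagen uptake receptor Mrc2 and the hyaluronan receptor Cd44. Itga7 averaged 210 ± 33.7 CPM in weight loss fat, 369 ± 88.6 CPM in obese fat and 245 ± 35.4 CPM in lean fat, with log2 differences of 0.60 ± 0.16 for obese against lean (edgeR adjusted p = 0.0301) and -0.82 ± 0.17 for weight loss against obese (edgeR adjusted p = 0.0252). The call in weight loss against obese was lost without weight loss replicates 2, 3 or 4 or obese replicate 3. Without weight loss replicate 1 the count of receptors called there was 2, both lower, and 0.745% of all genes were called lower. No receptor was called in weight loss against lean by edgeR, where 8 of the 27 had an unadjusted p under 0.05 (11.4% of all genes did) and DESeq2 called 1 higher (1.33% of all genes).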

How the data were processed

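Perigonadal fat was profiled by poly(A) RNA sequencing in 15 libraries. The values the authors deposited are expected counts for each Entrez ID, with no normalization, and 34.8% of them are not whole. The build was mm10 per the submitters' processing notes. Aligner, counter, annotation and strand use were not given in the sources used here, so overlapping genes may share reads. Of 36172 lines, some repeat an ID (74 IDs, reads on at most 1 line each). RefSeq named 32919 IDs, GENCODE M21 another 24, and 2851 stayed without a symbol. Weight loss replicate 5 had under 1000000 counts in all and was left out.

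Rounded counts of 14 libraries entered 1 edgeR 4.0.16 quasi-likelihood model with 3 groups (R 4.3.3, filterByExpr by group, TMM). Tests were two-sided, with p-values adjusted by Benjamini-Hochberg across the 15208 genes kept. Since edgeR returns no SE, each SE is the size of the log2 difference divided by the root of F. Levels per kilobase use the longest principal mRNA of GENCODE M21. None is given for Vcan, whose principal mRNA is a short isoform. Errors of levels are SD over libraries.

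The members, the other lists, the tests and the alternatives were chosen with earlier results of these data known. All 47 members may be named, of each of the 2 other matrix lists the called genes (at most the 6 with the smallest p per comparison), and of each marker list the most abundant gene. Spp1 was named beyond that limit, and Acta2 was named after its values were seen. The alternatives changed the scaling (DESeq2 size factors, library totals), the filter (none, or CPM from 1 upward in 5 or more libraries), the test (DESeq2 1.42.0, limma-voom 3.58.1), the libraries in the fit (the compared groups alone, each of the 14 left out, the 4 richest in epididymal markers left out), the model (a replicate block, the epididymal marker level as covariate) and the threshold (0.01). The test was checked on simulated counts in which 100 genes were changed 2-fold and 100 others 1.5-fold, up or down. It found 49% of 2-fold changes between obese and lean fat. The share was 44% between weight loss and lean fat, and 34% between weight loss and obese fat. At 1.5-fold the shares were 6%, 6% and 4% in that order. False calls, counted over the runs that held both fold sizes, numbered 1, 3 and 1. A gene left uncalled may therefore still differ by such amounts. Python 3.11.15, pandas 2.3.3 and matplotlib 3.10.9 made tables and figures.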

Additional observations from a re-analysis of the deposited data

Results flagged for a closer look

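A library that stood apart from the rest of its group, by Dixon's test at the 95% level, was looked for in 141 groups, the 47 matrix genes in 3 groups each. It was found in 9, and chance gives about 5% of groups. Weight loss replicate 1 stood high for Hspg2, at 1321 CPM against 599 to 685 CPM in the rest of its group, for Eln, at 540.5 CPM against 254 to 302 CPM, for Ltbp4, at 558 CPM against 304 to 311 CPM, and for Emilin1, at 48.8 CPM against 31.6 to 34.1 CPM. Weight loss replicate 2 stood low for Lamc3, at 17.9 CPM against 23.0 to 23.8 CPM. Weight loss replicate 4 stood high for Fbn2, at 4.06 CPM against 0.712 to 1.27 CPM. Obese replicate 2 stood high for Dcn, at 566 CPM against 405 to 448 CPM. Lean replicate 3 stood low for Hspg2, at 493 CPM against 675 to 743 CPM, and lean replicate 4 stood high for Sparcl1, at 335 CPM against 217 to 249 CPM.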

How the results depend on the processing

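The number of matrix genes called in obese against lean, 18, became 6 at an adjusted p of 0.01, where 301 of all 15208 genes were called higher. It became 4 without the 4 libraries richest in epididymal markers, where 0.603% of all genes were called higher. That fit leaves 2 obese libraries, and the median log2 difference of the matrix genes was 0.70 there, against 0.51. With 1 library left out the number ran from 10 to 19, in fits that called 503 to 993 of all genes higher. For weight loss against obese, 2 became 1 with the epididymal marker level as a covariate and 0 without those 4 libraries. In these fits 0.230% and 0.117% of all genes were called lower. With 1 library left out the number ran from 2 to 4, in fits that called 84 to 153 of all genes lower. For weight loss against lean, 0 became 7 with DESeq2 and 1 with the replicate block, where 203 and 2 of all genes were called higher. With 1 library left out the number ran from 0 to 7, in fits that called 0 to 115 of all genes higher. For the other basement membrane, elastic fibre and proteoglycan genes, 7 became 3 in obese against lean without those 4 libraries, where 93 of all genes were higher and 32 lower. In weight loss against obese 4 became 1 there, where 2 of all genes were higher and 18 lower. In weight loss against lean 0 became 1 with DESeq2, where 203 of all genes were higher, and ran from 0 to 2 with 1 library left out. For the receptors, 5 in obese against lean became 2 at an adjusted p of 0.01 and 0 without those 4 libraries, where 301 and 93 of all genes were called higher. Their count of 1 in weight loss against obese became 2 with DESeq2, where 423 of all genes were called lower. It became 0 with only the groups compared, the replicate block, an adjusted p of 0.01, the covariate or those 4 libraries left out. In these fits 125, 103, 57, 35 and 18 of all genes were called lower. With 1 library left out the count ran from 0 to 2, in fits that called 84 to 153 of all genes lower. Of receptors in weight loss against lean, 0 became 1 with DESeq2, where 203 of all genes were called higher, and ran from 0 to 1 with 1 library left out.

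The log2 difference of Dcn in obese against lean turned to -0.027 without those 4 libraries, and that of Ogn, -0.00, to 0.013 by library totals, 0.033 with limma-voom, 0.084 with the replicate block, 0.088 with the covariate and 0.25 without those 4 libraries. With 1 library left out, signs also turned for Dcn (-0.12 to 0.36), Fmod (-0.11 to 0.29) and Ogn (-0.17 to 0.17) in obese against lean, Postn (-0.70 to 0.13), Tnxb (-0.445 to 0.068) and Fbln2 (-0.39 to 0.14) in weight loss against obese, and Hspg2 (-0.04 to 0.38) in weight loss against lean. These checks cover 72 log2 differences, those of the 18 called genes in 3 comparisons and 18 more of uncalled genes, not all of the 47 genes in each comparison. Of their 1008 values with 1 library left out 923 kept direction and side of the threshold, and of 792 under the other alternatives 734 did. The 1008 include fits in which the library left out belonged to neither group compared. The causes were not tested.

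Correlations gave no uniform sign that replicate numbers pair the libraries, though they cannot exclude a pairing. Same-numbered libraries had correlated deviations (r) between -0.553 and 0.399, over 0.1 in 4 of 13 pairs, and 3 of 14 libraries correlated best with their own number. The block moved the matrix gene counts to 21 higher in obese against lean, 2 lower in weight loss against obese and 1 higher in weight loss against lean. Over all genes 1026, 103 and 2 were called in these directions. With 4 or 5 libraries a group, genes of few counts such as Fbn2 and Lama3 are the least precise.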
